A study of Mus musculus with 6 samples.

Results

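The immunity-related GTPases (IRG) described here are Iigp1, Gm4951, Irgm1, Irgm2, Igtp, Ifi47, Tgtp1 and Tgtp2, 8 genes taken by symbol from the 32285 mouse genes of 2 single-nucleus libraries. They were chosen by measured values, since earlier results of these data had shown their RNA in one library, so the levels and differences below are a description and no test was made. Both libraries came from the brains of C57BL/6J mice in which in utero electroporation had put plasmids into progenitors of the embryonic forebrain and lesions then grew. All tissue carried piggyBac vectors that integrate into the genome and express Foxr2 with GFP and Akaluc with GFP from the CAG promoter, which is active in most cell types. Foxr2 p53LOF also received a CRISPR guide against p53 with Cas9, and Foxr2 alone did not. The tissue was not sorted, so nuclei of the lesion and of the host brain were read together, and the ages of the animals were not given in the sources used here.

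RNA and chromatin accessibility were read from the same nucleus with the 10x Multiome assay. Counts were analysed for 1 library per genotype, so every difference between genotypes is a difference between 2 libraries and has no replicate check. For the other library, Foxr2 alone replicate 2, the called peaks were used and the counts were not analysed here. Filtering left 8360 nuclei for Foxr2 p53LOF and 8324 for Foxr2 alone, with medians of 5530 and 3637 UMIs (unique molecular identifiers, 1 per captured RNA molecule). The libraries shared 140 barcodes. Levels are on the CPM scale, which divides a gene's UMIs by the total of its class and multiplies by 1000000, and brackets hold 95% intervals that cover counting error only.

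Nuclei were assigned to classes by marker genes, and the suffix "-like" says that the name rests on them. In Foxr2 p53LOF, a cluster of glia was called tumor glia when the share of its nuclei with a vector count in the ATAC data was at least 3 times that of immune-like nuclei, which was 0.797%. The COP-like cluster (committed oligodendrocyte precursors, 28.2%) and both astrocyte-like clusters (30.6% and 10.3%) passed this threshold of 2.39%, and they held 2331 nuclei. The cluster at 10.3% (223 nuclei) was led by Etnppl, A2m and Gjb6, and Etnppl was also a leading gene of the astrocyte-like cluster of Foxr2 alone. Outside tumor glia this library had 5 astrocyte-like nuclei. Whether the cluster at 10.3% also held host astrocytes was not tested. An OPC-like cluster (oligodendrocyte precursors) lay just outside at 2.06%, which was 2 of 97 nuclei, and the oligodendrocyte-like cluster was at 0.785%. These clusters were called host glia, with 1633 nuclei including a few of other clusters. The remaining classes were immune-like (1632 nuclei), neuron-like (2253), vascular-like (60) and unnamed (451). Of the neuron-like nuclei, 2238 held no vector count. Summed over 8 markers each, tumor COP-like nuclei had 2471 CPM of OPC, 378 of astrocyte and 4932 of oligodendrocyte markers, and tumor astrocyte-like nuclei had 4678, 3078 and 526, so their OPC sum was above their astrocyte sum. Host oligodendrocyte-like nuclei had 228, 366 and 19476. In Foxr2 alone no vector peak was called, so its glia could not be divided, and its classes are named by markers only: 3027 oligodendrocyte-like, 169 OPC-like, 425 astrocyte-like, 420 immune-like, 25 vascular-like and 4253 neuron-like nuclei. GFP RNA in its main clusters was 151 CPM in astrocyte-like, 97.8 in OPC-like, 58.5 in oligodendrocyte-like and 19.3 in immune-like nuclei. Whether its glia held electroporated cells was not tested. RNA of Trp53, the targeted gene, was 52.9 CPM [49.9 to 55.9] in tumor glia and 35.0 [29.7 to 41.0] in host glia. A guide that edits the DNA need not lower the RNA, so this level does not check the label.

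Iigp1 lies at chr18:60376027-60392634 on the plus strand of mm10, and Gm4951 at chr18:60212080-60247820 on the same strand. The other 6 genes lie in 2 groups on chromosome 11. The first holds Irgm1 (chr11:48861968-48871683, minus strand), Tgtp1 (chr11:48985327-48994172, minus strand), Tgtp2 (chr11:49057194-49064206, minus strand) and Ifi47 (chr11:49076587-49096974, plus strand). The second holds Igtp (chr11:58199556-58207591) and Irgm2 (chr11:58199618-58222782), both on the plus strand. All 8 are annotated as protein-coding.

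IRG proteins are GTPases that cells make in response to interferon, above all interferon gamma, and that act on membranes inside the cell. Effector members such as Iigp1, Tgtp1, Tgtp2 and Ifi47 load onto the vacuoles in which intracellular parasites and bacteria live and break them. Irgm1, Irgm2 and Igtp (also called Irgm3) are the regulatory members, which sit on the membranes of the cell itself and hold the effectors in the inactive state there. Gm4951 belongs to the same family by sequence. Interferon gamma acts through its receptor and the kinases Jak1 and Jak2. Promoters of interferon-induced genes often hold GAS elements or the interferon-stimulated response element (ISRE), to which Irf1 binds.

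Some members share annotation, which limits how far their counts can be told apart. Igtp and Irgm2 overlap in exons on the same strand. Tgtp1 overlaps the exons of Gm12185, another IRG gene, on the same strand, and Ifi47 those of Olfr56, an olfactory receptor gene. Tgtp1 and Tgtp2 are near-identical copies, and reads that fit both are usually not counted, so the values of both genes are uncertain.

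The bases before the start site are shown for 5 members because they hold the letters of interferon elements close to the start, both elements in 4 of them and the ISRE alone in Irgm1, inside regions that were open in these nuclei. Promoter sequences were taken from RefSeq for GRCm38.p6, which has the coordinates of mm10, and 6 of the 8 members matched: Irgm1, Irgm2, Igtp, Ifi47, Tgtp1 and Tgtp2. Iigp1 and Gm4951 had no entry in the table. The 250 bases before each start were searched on both strands for GAAANNGAAA, the core of the ISRE, and for TTCNNNGAA, the GAS element. The last 100 bases are printed 5′ to 3′ in the direction of the gene, with the matches in capitals, and the start site follows the last base.
Irgm1, chr11:48871421-48871520, minus strand: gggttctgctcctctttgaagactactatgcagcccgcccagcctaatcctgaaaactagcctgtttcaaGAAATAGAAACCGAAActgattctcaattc
Irgm2, chr11:58214877-58214976, plus strand: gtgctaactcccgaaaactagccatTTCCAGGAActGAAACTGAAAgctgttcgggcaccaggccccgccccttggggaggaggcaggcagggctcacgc
Igtp, chr11:58199456-58199555, plus strand: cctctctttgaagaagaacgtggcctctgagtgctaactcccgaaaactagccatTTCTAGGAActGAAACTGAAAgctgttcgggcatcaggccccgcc
Tgtp1, chr11:48992247-48992346, minus strand: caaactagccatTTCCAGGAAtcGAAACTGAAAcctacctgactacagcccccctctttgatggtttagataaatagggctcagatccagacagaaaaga
Tgtp2, chr11:49064213-49064312, minus strand: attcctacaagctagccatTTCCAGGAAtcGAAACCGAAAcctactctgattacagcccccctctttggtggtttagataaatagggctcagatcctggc

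In Irgm2, Igtp, Tgtp1 and Tgtp2 a GAS match was followed after 2 bases by an ISRE match. The ISRE match began 64, 34, 77 and 70 bases before the start, in that order of genes. Irgm1 had a pair of overlapping ISRE matches, which began 30 and 24 bases before the start, and no GAS match. The 250 bases before the first start of Ifi47 held neither, and its later starts, where its larger peaks lay, were not searched. Of 32851 promoters of the same length, 978 (2.98%) held the ISRE letters, 2306 (7.02%) held the GAS letters, and 5 (0.0152%) held the joined form TTCNNNGAANNGAAANNGAAA. Those 5 belonged to the 4 members named above and to Gm12185. The joined form has the spacing found in these members, so its count is a description and no test. Tgtp1 and Tgtp2 are near-identical copies, and the printed bases of Irgm2 and Igtp share a long run around the matches. The matches are therefore not independent of each other. All 5 printed windows lay in a peak called in Foxr2 p53LOF, and those of Irgm1, Irgm2 and Igtp also in a peak of each Foxr2 alone library. A match of letters is a description and does not show that a factor was bound.

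IRG UMIs were counted in every class of Foxr2 p53LOF, where part can be free RNA as described further on, and IRG RNA was low in every class of Foxr2 alone. Summed over the 8 genes it was 2540 CPM [2512 to 2568] in tumor astrocyte-like nuclei, 1575 [1552 to 1599] in tumor COP-like nuclei and 1327 [1292 to 1363] in host oligodendrocyte-like nuclei. It was 1238 [1074 to 1420] in vascular-like, 1050 [1022 to 1078] in immune-like, 476 [405 to 556] in host OPC-like and 103 [99.0 to 107] in neuron-like nuclei. The interval of the 60 vascular-like nuclei overlapped those of host oligodendrocyte-like and immune-like nuclei, and the other neighbours in this order did not overlap. In Foxr2 alone the sum was 97.3 CPM [35.7 to 212] in vascular-like, 91.9 [68.4 to 121] in immune-like, 32.8 [24.3 to 43.4] in astrocyte-like, 15.2 [6.12 to 31.4] in OPC-like, 8.86 [6.17 to 12.3] in oligodendrocyte-like and 2.87 [2.32 to 3.51] in neuron-like nuclei. There the neighbours differed beyond their intervals only between immune-like and astrocyte-like and between oligodendrocyte-like and neuron-like nuclei. No class of Foxr2 alone reached the level of the neuron-like nuclei of Foxr2 p53LOF by its central value, although the interval of the 25 vascular-like nuclei and that of the immune-like nuclei include it.

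**Figure D1:**
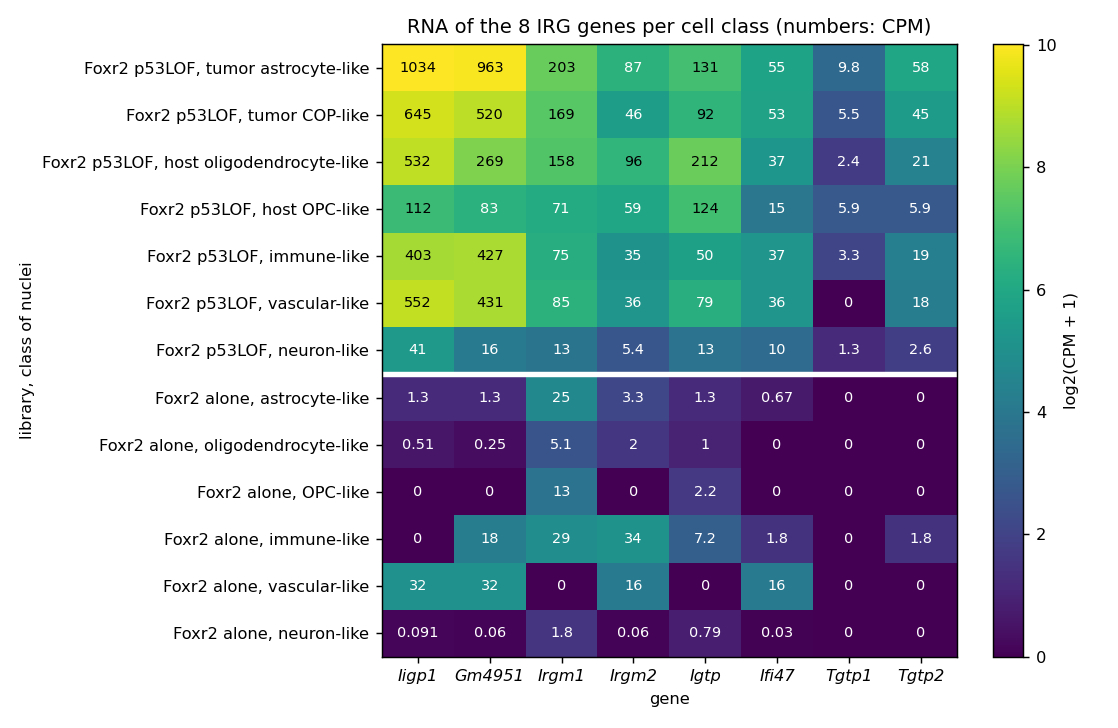
RNA of the 8 IRG genes (columns) in each class of nuclei (lines of the grid), with CPM printed in the cells and color on the scale log2(CPM + 1). The classes of Foxr2 p53LOF stand above the white line and those of Foxr2 alone below it. Iigp1 ran from 40.6 CPM in neuron-like to 1034 CPM in tumor astrocyte-like nuclei of Foxr2 p53LOF and reached at most 32.4 CPM in Foxr2 alone.

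Iigp1, an effector, had 1034 CPM [1016 to 1052] in tumor astrocyte-like nuclei, 645 [630 to 660] in tumor COP-like nuclei and 552 [445 to 678] in vascular-like nuclei of Foxr2 p53LOF. It had 532 [510 to 555] in host oligodendrocyte-like, 403 [386 to 420] in immune-like, 112 [79.5 to 154] in host OPC-like and 40.6 [38.1 to 43.1] in neuron-like nuclei. Vascular-like nuclei could not be placed against tumor COP-like or host oligodendrocyte-like nuclei, and the other steps exceeded the intervals. In Foxr2 alone 9 UMIs of Iigp1 were counted in the named classes, and none of them was in the immune-like nuclei, where 3 counts would be 5.40 CPM.

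Gm4951, of which less is known, followed another order. It had 963 CPM [946 to 980] in tumor astrocyte-like and 520 [506 to 534] in tumor COP-like nuclei, then 431 [336 to 543] in vascular-like and 427 [410 to 446] in immune-like nuclei. Host oligodendrocyte-like nuclei came below these at 269 [253 to 285], followed by host OPC-like nuclei at 82.8 [55.0 to 120] and neuron-like nuclei at 16.3 [14.7 to 17.9]. Vascular-like nuclei overlapped both their neighbours. Immune-like nuclei lay above host oligodendrocyte-like nuclei for Gm4951 and below them for Iigp1. In Foxr2 alone, Gm4951 had 10 UMIs in immune-like nuclei, or 18.0 CPM [8.64 to 33.1], and at most 2 UMIs in any other class.

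The regulatory members had another distribution among the glia. Igtp was highest in host oligodendrocyte-like nuclei, at 212 CPM [198 to 226], and had 131 [124 to 137] in tumor astrocyte-like, 124 [89.5 to 168] in host OPC-like, 92.0 [86.3 to 97.9] in tumor COP-like, 50.4 [44.4 to 56.9] in immune-like and 13.1 [11.7 to 14.6] in neuron-like nuclei. Irgm2 had 96.1 [86.8 to 106] in host oligodendrocyte-like and 86.6 [81.5 to 91.9] in tumor astrocyte-like nuclei, whose intervals overlapped, against 46.0 [42.1 to 50.3] in tumor COP-like and 34.6 [29.7 to 40.1] in immune-like nuclei. Irgm1 was 203 [195 to 211] in tumor astrocyte-like, 169 [161 to 177] in tumor COP-like, 158 [146 to 170] in host oligodendrocyte-like and 75.5 [68.2 to 83.4] in immune-like nuclei, with the middle pair not told apart.

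In the smaller classes the intervals were wide. Host OPC-like nuclei had 59.1 CPM of Irgm2 [36.1 to 91.3] and 71.0 of Irgm1 [45.5 to 106], and vascular-like nuclei had 78.9 of Igtp [42.0 to 135], 36.4 of Irgm2 and 84.9 of Irgm1. Neuron-like nuclei had 5.40 of Irgm2 and 13.5 of Irgm1, the lowest of the named classes. In Foxr2 alone, Irgm2 was 34.2 CPM [20.6 to 53.5] and Irgm1 28.8 [16.5 to 46.8] in immune-like nuclei, which for Irgm1 was not told apart from 24.8 [17.4 to 34.1] in astrocyte-like nuclei. As a share of all IRG UMIs of a class, Igtp was 15.97% [15.0 to 17.0] in host oligodendrocyte-like and 26.1% [19.5 to 33.6] in host OPC-like nuclei, but 5.39% [5.19 to 5.59] in tumor glia and 4.80% [4.25 to 5.41] in immune-like nuclei. The share of Iigp1 was 40.8% in tumor glia, 40.1% in host oligodendrocyte-like and 39.4% in neuron-like nuclei, with intervals that overlapped. It was 38.4% [37.1 to 39.7] in immune-like and 23.6% [17.3 to 30.9] in host OPC-like nuclei, both apart from tumor glia [40.4 to 41.2].

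Ifi47, Tgtp1 and Tgtp2 completed the effectors. Ifi47 was 55.0 CPM [50.9 to 59.3] in tumor astrocyte-like and 52.9 [48.6 to 57.4] in tumor COP-like nuclei, and 37.3 [31.6 to 43.7] in host oligodendrocyte-like and 36.8 [31.7 to 42.4] in immune-like nuclei. Tgtp2 was 58.1 [54.0 to 62.5] in tumor astrocyte-like, 45.4 [41.4 to 49.6] in tumor COP-like, 20.7 [16.6 to 25.6] in host oligodendrocyte-like and 18.9 [15.3 to 23.0] in immune-like nuclei. In host OPC-like and neuron-like nuclei Ifi47 was 14.8 and 10.2 CPM and Tgtp2 5.91 and 2.58. For both genes the tumor classes lay above the other named classes with their intervals apart, except for the wide interval of vascular-like nuclei. Tgtp1 was low throughout, from 0 UMIs in vascular-like nuclei to 9.81 CPM [8.14 to 11.7] in tumor astrocyte-like nuclei, and had 0 UMIs in all classes of Foxr2 alone.

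The same classes were then set side by side between the libraries. They were mostly not the same clusters: neuron-like nuclei of Foxr2 p53LOF lay mainly in clusters 1, 17 and 21 and those of Foxr2 alone in clusters 4, 6, 8, 10, 13, 14, 22 and 23, with 33 nuclei in cluster 1, oligodendrocyte-like nuclei in 2 against 0, and immune-like nuclei in 7, 9 and 18 against 12. OPC-like nuclei lay in cluster 16 in both. Summed IRG RNA was higher in Foxr2 p53LOF by 150-fold [108 to 215] in oligodendrocyte-like nuclei, 35.9-fold [29.2 to 44.5] in neuron-like nuclei, 31.3-fold [14.8 to 79.1] in OPC-like nuclei and 11.4-fold [8.67 to 15.4] in immune-like nuclei. With counts per nucleus instead of CPM, the log2 ratio in immune-like nuclei rose from 3.51 to 4.77 and that in oligodendrocyte-like nuclei from 7.23 to 8.26. The leading genes of the neuron-like clusters also differed, with Slc6a3 and Th in cluster 21 of Foxr2 p53LOF and Drd1 and Tac1 in cluster 4 of Foxr2 alone. The brain regions in the 2 libraries may therefore differ. Genotype, animal, brain region and library preparation cannot be told apart here.

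**Figure D2:**
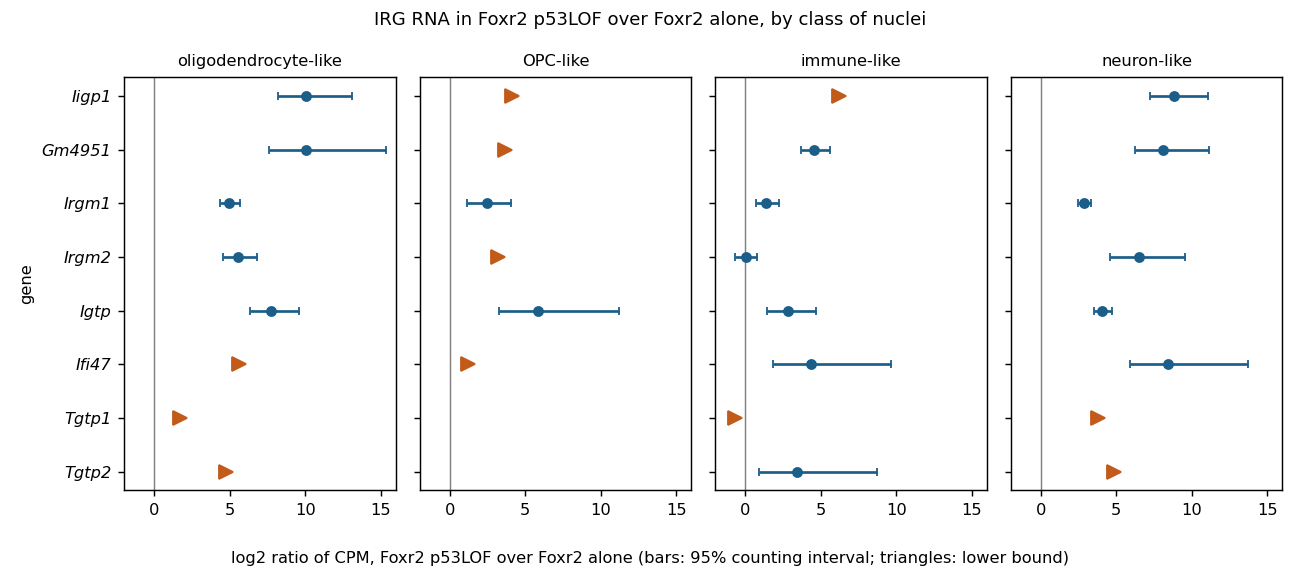
Log2 ratio of CPM, Foxr2 p53LOF over Foxr2 alone, for each IRG gene (vertical axis) in 4 classes of nuclei, with 95% counting intervals as bars and triangles for lower bounds where Foxr2 alone had 0 UMIs. The values with an interval run from 0.02 for Irgm2 in immune-like nuclei to 10.05 for Gm4951 in oligodendrocyte-like nuclei, and among them that of Irgm2 includes 0. The lower bound of Tgtp1 in immune-like nuclei is -0.71, and Tgtp1 and Tgtp2 in OPC-like nuclei, at or under the floor in both libraries, are not drawn.

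In oligodendrocyte-like nuclei, Iigp1 had 2182 UMIs in Foxr2 p53LOF and 2 in Foxr2 alone, a log2 ratio of 10.04, and Gm4951 had 1102 and 1, a log2 ratio of 10.05. Such ratios rest on 1 or 2 UMIs in the lower library, and the interval of the fold ran from 290 to 8679 for Iigp1 and from 190 to 41945 for Gm4951. Among the regulatory members, Irgm1 and Irgm2 had lower ratios with intervals apart from these, and the interval of Igtp overlapped them. Igtp had 869 and 4 UMIs (209-fold [81.4 to 769]), Irgm2 394 and 8 (47.4-fold [23.8 to 111]) and Irgm1 647 and 20 (31.1-fold, a log2 ratio of 4.96 [4.32 to 5.68]). Ifi47, Tgtp2 and Tgtp1 had 0 UMIs in Foxr2 alone, and against a floor of 3 counts over the class they were at least 49.1-fold, 27.3-fold and 3.21-fold higher in Foxr2 p53LOF. Of the 7 members with at least 10 CPM in either library, 7 were at least 2-fold higher, where 13.3% of all genes with that level were. In Foxr2 alone no member exceeded 5.06 CPM in these nuclei, so all 7 passed this filter through Foxr2 p53LOF. The count was therefore largely set by the filter. The same limit holds below wherever a gene or peak reached the minimum in only 1 of the 2 classes compared.

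In immune-like nuclei the members differed from each other. Iigp1 had 2070 UMIs in Foxr2 p53LOF and 0 in Foxr2 alone, and was at least 74.5-fold higher. Gm4951 was 23.7-fold higher [12.9 to 49.5], Ifi47 20.4-fold [3.62 to 810], Tgtp2 10.5-fold [1.84 to 418], Igtp 6.99-fold [2.70 to 25.9] and Irgm1 2.62-fold [1.59 to 4.63]. Ifi47 and Tgtp2 each had 1 UMI in Foxr2 alone. Tgtp1 had 17 UMIs against 0, and its lower bound, a log2 ratio of -0.71, gives no direction. Irgm2 was at 34.6 CPM against 34.2 CPM in Foxr2 alone. Its log2 ratio was 0.02 [-0.67 to 0.78] on the CPM scale, which was 0.28 [-0.41 to 1.05] with the median of ratios and 1.27 [0.58 to 2.04] with counts per nucleus. Of 7 members with at least 10 CPM, 6 were at least 2-fold higher, beside 15.4% of all genes. Among these 6, Iigp1, Igtp, Ifi47 and Tgtp2 were below 10 CPM in Foxr2 alone and passed the filter through Foxr2 p53LOF. The median gene of this comparison lay at -0.26 on the log2 scale.

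In neuron-like nuclei 5 of 5 members with at least 10 CPM were at least 2-fold higher in Foxr2 p53LOF, beside 13.4% of all genes. No member exceeded 1.84 CPM in these nuclei of Foxr2 alone, so this count too was largely set by the filter. The log2 ratios of the 5 members were 8.81 for Iigp1, 8.07 for Gm4951, 8.41 for Ifi47, 4.06 for Igtp and 2.87 for Irgm1. Of these, Iigp1, Gm4951 and Irgm1 lay below the level of GFP RNA given next, Igtp overlapped it and Ifi47 lay above it. Against the other vector transcript, Foxr2, Igtp lay below and Ifi47 overlapped. In OPC-like nuclei 6 of 6 members with at least 10 CPM were at least 2-fold higher, beside 11.1% of all genes. There Igtp had 42 UMIs against 1 (57.1-fold [9.71 to 2310]) and Irgm1 24 against 6 (5.44-fold [2.17 to 16.3]), and Iigp1, Gm4951, Irgm2 and Ifi47 had 0 UMIs in Foxr2 alone and were at least 17.2-fold, 12.7-fold, 9.07-fold and 2.27-fold higher. The values of Iigp1 and Gm4951 in these OPC-like nuclei lay below the level of the vector transcripts given next. In Foxr2 alone, Irgm1 still had 61 UMIs in neuron-like, 37 in astrocyte-like, 20 in oligodendrocyte-like and 6 in OPC-like nuclei.

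Free RNA from broken nuclei adds UMIs to droplets of every class in this assay. The vector transcripts, which come from electroporated cells and their descendants, give a background level for other classes. GFP RNA was 609 CPM in tumor glia of Foxr2 p53LOF. It was 12.5% [11.9 to 13.2] of that level in neuron-like nuclei, 37.3% in immune-like and 32.7% in host oligodendrocyte-like nuclei, and Foxr2 RNA was at 15.1%, 36.8% and 35.8%. The unnamed nuclei, outside tumor glia, had GFP at 113% [106 to 119] and 1207 CPM of IRG RNA. In their cluster 15 (289 nuclei), 20.8% of nuclei held a vector count, GFP was 1847 CPM and IRG RNA 973 CPM. Whether free GFP RNA and free IRG RNA came from the same nuclei was not tested. In neuron-like nuclei 5 of the 8 members lay below the GFP percentage: Gm4951 at 2.15%, Iigp1 at 4.75%, Tgtp2 at 4.94%, Irgm1 at 7.22% and Irgm2 at 7.97%. A member below GFP had less free RNA than GFP, each relative to tumor glia, so GFP overstates its background. GFP therefore cannot tell background from expression for these 5 members. Their RNA was not shown to be expression of neuron-like nuclei. Igtp, at 11.6%, and Tgtp1, at 16.3%, had intervals that overlapped that of GFP, and Ifi47 lay above it at 19.0% [16.5 to 21.7].

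In host oligodendrocyte-like nuclei 5 members lay above the GFP percentage with intervals that did not overlap it. They were Igtp at 188% of the tumor glia level [174 to 203], Irgm2 at 142%, Irgm1 at 84.4%, Ifi47 at 69.1% and Iigp1 at 62.3%. Gm4951 (35.5%), Tgtp2 (39.7%) and Tgtp1 (31.3%) were near the vector transcripts, and the part of free RNA in their values was not tested. In immune-like nuclei, where GFP was 37.3% [35.1 to 39.5], Iigp1 (47.2%), Gm4951 (56.4%), Irgm2 (51.1%) and Ifi47 (68.1%) lay above GFP with intervals apart. The intervals of Irgm1 (40.4%), Igtp (44.7%), Tgtp1 (42.4%) and Tgtp2 (36.1%) overlapped that of GFP. In host OPC-like nuclei GFP was 31.1% [23.9 to 39.7]. Igtp (110% [79.2 to 149]) and Irgm2 (87.3% [53.2 to 135]) lay above it there. The interval of Foxr2 RNA, 45.7% [23.6 to 80.1], overlapped both. Iigp1 at 13.2% [9.32 to 18.1] and Gm4951 at 10.9% [7.26 to 15.8] lay below GFP and were not told apart from background. In the 60 vascular-like nuclei GFP was 47.8% [35.2 to 63.4], and the intervals of the 7 members with UMIs, such as Iigp1 (64.7% [52.1 to 79.5]) and Gm4951 (56.9% [44.4 to 71.8]), overlapped it.

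**Figure D3:**
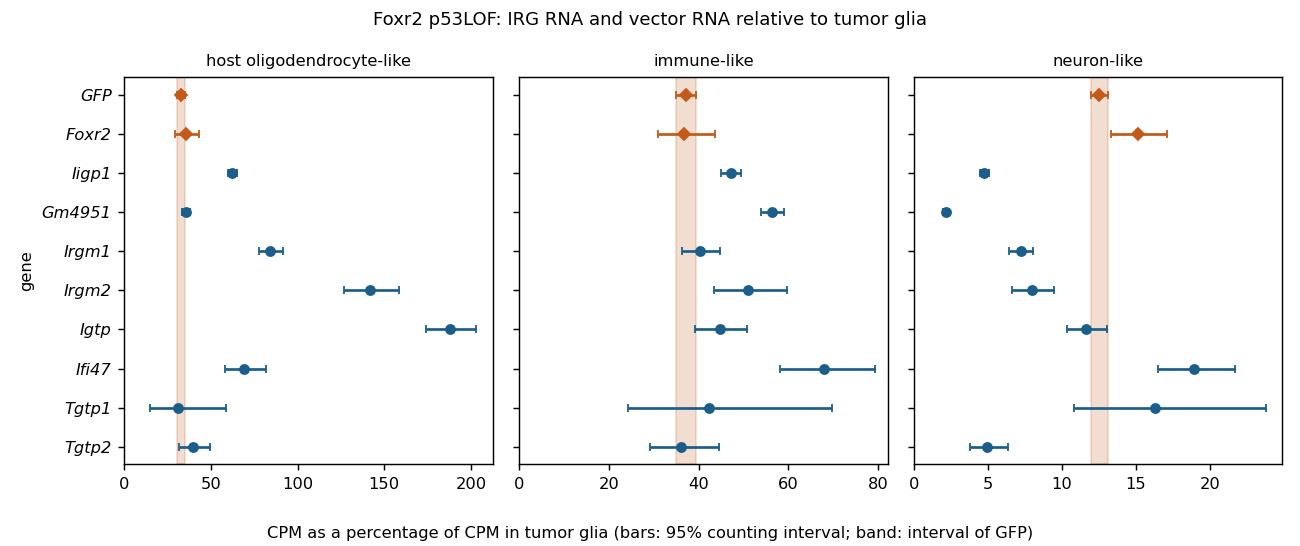
CPM of each IRG gene (circles) and of the vector transcripts GFP and Foxr2 (diamonds) as a percentage of their CPM in tumor glia of Foxr2 p53LOF, in 3 other classes, with 95% counting intervals and a band for the interval of GFP. In neuron-like nuclei Gm4951 (2.15%) and Iigp1 (4.75%) lie below GFP (12.5%), and in host oligodendrocyte-like nuclei Igtp (188%) and Irgm2 (142%) lie far above GFP (32.7%).

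Summed IRG RNA was 1.66-fold higher [1.62 to 1.71] in tumor glia than in host glia of Foxr2 p53LOF, and the members did not move together. Of the 1633 host glia nuclei, 1531 were oligodendrocyte-like, while tumor glia were astrocyte-like and COP-like. Tumor or host origin and cell type therefore cannot be told apart in this comparison. Gm4951 (757 against 254 CPM), Tgtp1 (7.80 against 2.69) and Tgtp2 (52.2 against 19.7) were higher in tumor glia by 2.98-fold [2.81 to 3.17], 2.90-fold [1.62 to 5.71] and 2.64-fold [2.13 to 3.32]. Iigp1 (853 against 498) and Ifi47 (54.0 against 35.5) were higher by 1.71-fold and 1.52-fold. Irgm1 had a log2 ratio of 0.31 on the CPM scale, -0.00 [-0.12 to 0.12] with the median of ratios and 2.18 per nucleus. The regulatory members Irgm2 and Igtp were lower in tumor glia on the CPM scale, at 0.729-fold [0.654 to 0.815] and 0.549-fold [0.509 to 0.593], and lower with the median of ratios, but higher per nucleus at log2 ratios of 1.41 and 1.004. Tumor glia had a median of 8287 UMIs per nucleus and host glia 2496, and the median gene lay at 0.31 on the log2 CPM scale.

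Of 7 members with at least 10 CPM, 2 (Gm4951 and Tgtp2) were at least 2-fold higher in tumor than in host glia, beside 26.4% of all genes, a share near that of the genes as a whole. Leaving out nuclei with a UMI of an immune marker lowered the log2 ratio of the sum from 0.73 to 0.30. Deeper nuclei hold such a UMI more often: tumor glia held 9035 in 2331 nuclei and host glia 631 in 1633. The part of this selection in the drop was not tested. The 10 immune markers summed to 389 CPM in tumor glia, 142 in host glia and 5959 in immune-like nuclei, and none of them was at 0 in either glia class. There were 5.38 IRG UMIs per immune marker UMI in tumor glia and 8.89 in host glia, but 0.176 in immune-like nuclei. Tumor COP-like nuclei with and without a vector count had 1547 CPM [1505 to 1589] and 1589 [1560 to 1618] of IRG RNA, which overlapped. Tumor astrocyte-like nuclei had 2699 [2648 to 2752] and 2469 [2436 to 2502], which did not.

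**Figure D4:**
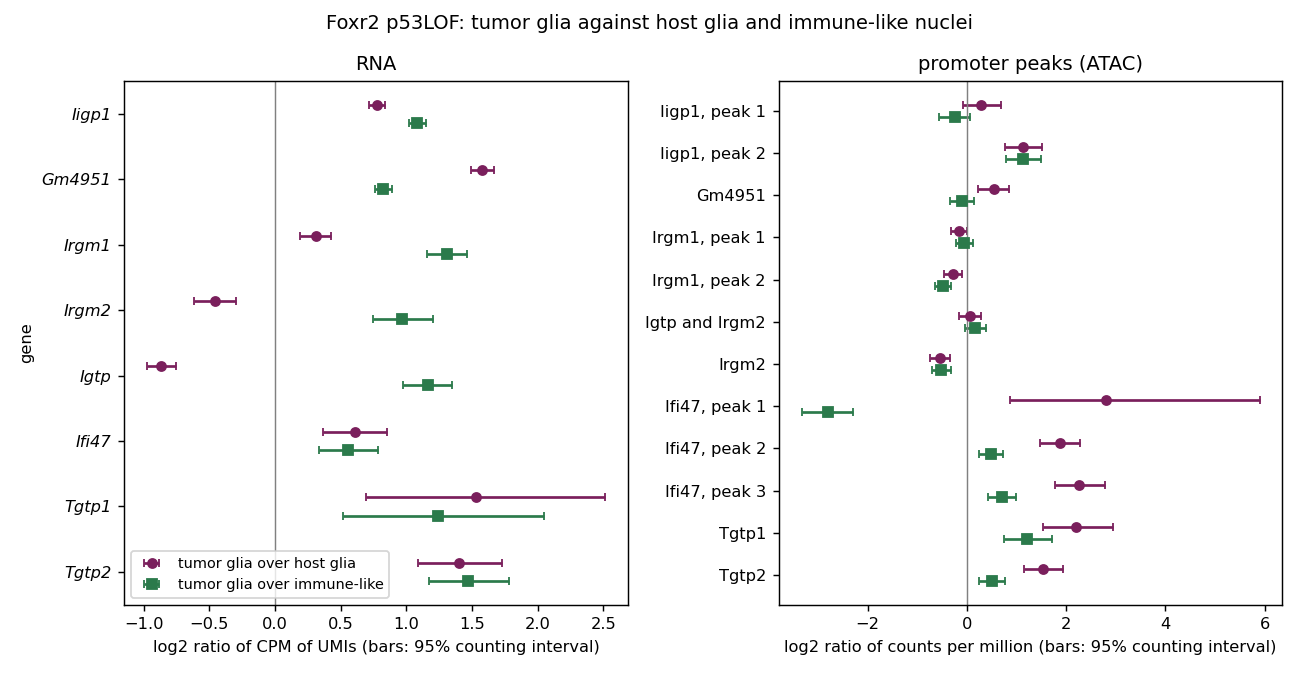
Log2 ratios in Foxr2 p53LOF of tumor glia over host glia (circles) and over immune-like nuclei (squares), for RNA of each IRG gene at the left and for each promoter peak at the right, with 95% counting intervals. For RNA over host glia, Gm4951 (1.58) stands at the top of the range and Igtp (-0.86) at the bottom, while all 8 ratios over immune-like nuclei lie above 0.

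Within the tumor glia, the astrocyte-like nuclei had 1.61-fold [1.58 to 1.64] more IRG RNA than the COP-like nuclei. The ratio was above 1 for 7 members, from 1.20-fold for Irgm1 to 1.88-fold for Irgm2, and that of Ifi47 was 1.04-fold [0.929 to 1.16]. Per nucleus the log2 ratios of Irgm1 and Ifi47 were -0.08 and -0.29, and that of Tgtp2 was 0.01 [-0.16 to 0.18]. The astrocyte-like clusters differed from each other in summed IRG RNA. It was 2672 CPM [2641 to 2704] in the one with 30.6% of nuclei with a vector count and 1772 [1712 to 1834] in the one with 10.3%. Against immune-like nuclei, all 8 members were higher in tumor glia under each of the 3 scalings. On the CPM scale the ratios ran from 1.47-fold (Ifi47) to 2.77-fold (Tgtp2). Of 7 members with at least 10 CPM, 4 (Iigp1, Irgm1, Igtp and Tgtp2) were at least 2-fold higher there, beside 23.0% of all genes. Immune-like nuclei had 10.2-fold [9.73 to 10.7] more IRG RNA than neuron-like nuclei, and 7 of 7 members were at least 2-fold higher on the CPM scale, beside 32.1% of all genes. With counts per nucleus the log2 ratio of the sum was 1.52, those of Irgm1 and Irgm2 were 0.66 and 0.85, and the intervals of Igtp (0.12 [-0.12 to 0.35]) and Ifi47 (0.02 [-0.26 to 0.29]) included 0. Tgtp1, which is below 10 CPM, was 2.60-fold higher on the CPM scale and had a log2 ratio of -0.45 [-1.39 to 0.44] per nucleus.

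The immune-like nuclei of Foxr2 p53LOF were of several kinds. IRG RNA was 1159 CPM [1101 to 1219] in 474 microglia-like nuclei, 1223 [1169 to 1278] in 566 unnamed nuclei led by Klra2, Ms4a4a and Ccr2, 821 [732 to 918] in 145 dendritic-like nuclei, 556 [480 to 641] in 126 macrophage-like nuclei and 533 [437 to 643] in 98 nuclei like T or NK lymphocytes. Unnamed kinds of 154 and 69 nuclei had 1024 and 943 CPM, or 48.9% and 45.1% of tumor glia against 22.7% and 27.8% for GFP. As a percentage of tumor glia, IRG RNA lay above GFP in the microglia-like nuclei (55.4% [52.6 to 58.3] against 34.2% [30.2 to 38.5]) and in those led by Klra2 (58.4% against 44.0%). It overlapped GFP in dendritic-like nuclei (39.2% against 44.8%). It lay below GFP in macrophage-like nuclei, led by Hspa1a, Nos2 and Rsad2 (26.6% against 41.1%), and in lymphocyte-like nuclei (25.5% against 72.1%). Ccr2 and Ms4a7, which are on the macrophage marker list, were among the leading genes of the unnamed nuclei led by Klra2. The macrophage-like nuclei may therefore not be all macrophages of this library. Iigp1 and Gm4951 lay below GFP in macrophage-like and lymphocyte-like nuclei, as did Irgm1 in lymphocyte-like nuclei. Their RNA was not told apart from background there. Ifi47 lay above GFP in dendritic-like nuclei, at 98.1% [59.7 to 152] on 20 UMIs. In lymphocyte-like nuclei Ifi47 (137% [76.5 to 227]) and Igtp (83.2%) had intervals that overlapped that of GFP, on 15 and 19 UMIs. The 405 microglia-like nuclei of Foxr2 alone had 92.0 CPM [67.6 to 122], so the difference between the libraries was also present with microglia alone. Ifng, which encodes interferon gamma, had 37 UMIs in Foxr2 p53LOF, of which 21 were in immune-like nuclei and 15 of these in the lymphocyte-like nuclei (74.0 CPM), and 0 UMIs in Foxr2 alone.

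To compare single nuclei at equal depth, each nucleus was thinned to 1000 UMIs. A UMI of any member was then found in 70.1% [67.6 to 72.5] of tumor astrocyte-like, 52.7% [49.5 to 55.9] of tumor COP-like, 52.1% [49.6 to 54.7] of host oligodendrocyte-like, 51.6% [49.1 to 54.0] of immune-like, 32.0% [22.9 to 42.2] of host OPC-like and 10.4% [9.16 to 11.7] of neuron-like nuclei of Foxr2 p53LOF. Since GFP was a lower percentage of its tumor glia level in neuron-like nuclei than in the other classes, the neuron-like share understates the background of those classes. The median depth before thinning was 9951 UMIs per nucleus in neuron-like, 2456 in host oligodendrocyte-like and 2524 in immune-like nuclei. Without thinning the shares were 94.5%, 91.7%, 72.8%, 77.1%, 53.6% and 60.7%. In Foxr2 alone the thinned shares were 10.1% [6.85 to 14.3] in immune-like, 3.07% in astrocyte-like, 1.18% in OPC-like, 0.852% in oligodendrocyte-like and 0.212% in neuron-like nuclei. Thinning left out 144 of the 420 immune-like and 915 of the 3027 oligodendrocyte-like nuclei there, and in Foxr2 p53LOF 83 of the 451 unnamed nuclei and at most 34 nuclei of a named class.

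Some members were found more often in nuclei with an Iigp1 UMI than in nuclei without one. Of 966 thinned tumor glia nuclei with an Iigp1 UMI, 62.8% [59.7 to 65.9] also had one of Gm4951, against 22.6% [20.4 to 24.9] of 1363 nuclei without Iigp1. The shares were 37.6% and 8.20% in host oligodendrocyte-like nuclei and 41.0% and 22.2% in immune-like nuclei. For Igtp they were 16.1% and 6.09% in tumor glia, 26.7% and 14.1% in host oligodendrocyte-like nuclei and 8.25% and 4.01% in immune-like nuclei. The intervals overlapped for Ifi47 in host oligodendrocyte-like nuclei (3.71% and 2.58%) and, in immune-like nuclei, for Irgm1, Irgm2 (4.0% and 3.67%), Ifi47 (4.50% and 2.92%) and Tgtp2. In neuron-like nuclei, 1.03% of 97 nuclei with Iigp1 and 1.67% of 2156 without it had a Gm4951 UMI, so the pairing seen in glia was not detectable there. At least 3 members were found in 16.9% of tumor glia, 9.23% of host oligodendrocyte-like, 3.82% of immune-like and 0.0888% of neuron-like nuclei.

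Chromatin at the promoters was read from the ATAC counts of the same nuclei, over peaks within 1000 bases of an annotated start. Foxr2 p53LOF had 12 such peaks, with at least 1 for each of the 8 members. In Foxr2 alone replicate 1 peaks were called at Irgm1 (2), Irgm2 (2), Igtp (1) and Ifi47 (1) and none at Iigp1, Gm4951, Tgtp1 or Tgtp2. Replicate 2 had peaks at these first 4 genes, at Gm4951 (2) and at Tgtp1 (1), and none at Iigp1 or Tgtp2. The peak nearest the start of Igtp also covers a start of Irgm2, and is counted once. Peaks were called in each library on its own, over nuclei of all classes, so a missing call depends on how many nuclei of each class the library held, and counts were compared only within a library.

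Summed over the 12 peaks, promoter counts per 1000000 peak counts of the class were 244 in tumor glia, 243 in immune-like, 228 in vascular-like, 200 in host oligodendrocyte-like, 115 in host OPC-like and 53.7 in neuron-like nuclei of Foxr2 p53LOF. Tumor glia over immune-like nuclei gave a log2 ratio of 0.00 [-0.06 to 0.07], with the median peak at 0.22, so the sum lay below the median peak. Single peaks ran from -2.81 [-3.33 to -2.30] at the first peak of Ifi47 to 1.22 [0.75 to 1.72] at Tgtp1. Some of them lay above the median peak and some below it. The summed RNA gave 0.995. Tumor over host glia gave 0.33 [0.26 to 0.41], with the median peak at 0.14. Peaks with intervals above 0 were those of Ifi47 (1.87 [1.48 to 2.28] and 2.26 [1.77 to 2.79] at its peaks with over 10 counts per 1000000, and 2.81 at the other on 46 against 2 counts), Tgtp1 (2.19), Tgtp2 (1.53), Gm4951 (0.54 [0.23 to 0.86]) and the second peak of Iigp1 (1.13), and the first peak of Iigp1 was at 0.29 [-0.08 to 0.68]. At the regulatory members the log2 ratios were 0.06 [-0.15 to 0.28] for the peak shared by Igtp and Irgm2, -0.55 for the second peak of Irgm2, and -0.16 and -0.28 for the peaks of Irgm1. Of the 10 IRG peaks with at least 10 counts per 1000000 in either class, 4 were at least 2-fold higher in tumor glia, beside 23.8% of all peaks. These 4 reached that minimum in tumor glia alone.

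The first peak of Ifi47, at the start of the longest transcript, stood apart. It had 113 counts in immune-like nuclei, 46 in tumor glia, 27 in neuron-like and 2 in host oligodendrocyte-like nuclei, which is 11.1, 1.59, 1.41 and 0.245 per 1000000. The other peaks of Ifi47, at 24.05 and 19.6, were higher in tumor glia than in immune-like nuclei (17.1 and 12.02). Immune-like over neuron-like nuclei gave a log2 ratio of 2.18 [2.07 to 2.28] over all IRG peaks, and 10 of 10 peaks with at least 10 counts per 1000000 were at least 2-fold higher in immune-like nuclei, beside 34.3% of all peaks. Only the first peak of Irgm1 (18.6) reached that minimum in neuron-like nuclei. The other peaks passed it through immune-like nuclei, so this count was largely set by the filter. In Foxr2 alone the summed peaks were at 162 in immune-like, 65.8 in OPC-like, 44.0 in astrocyte-like, 26.9 in oligodendrocyte-like and 18.5 in neuron-like nuclei, over its own peak set. The peak shared by Igtp and Irgm2 had a log2 ratio of oligodendrocyte-like over immune-like nuclei of -2.89 [-3.43 to -2.34] in Foxr2 alone and 0.13 [-0.14 to 0.40] in Foxr2 p53LOF.

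Nuclei with more IRG RNA also had more promoter counts. In host oligodendrocyte-like nuclei with 0, 1 to 2, and 3 or more IRG UMIs after thinning, promoter counts were 129 [118 to 141], 209 [192 to 226] and 346 [318 to 376] per 1000000 peak counts. They were 198, 249 and 344 in tumor astrocyte-like and 174, 219 and 288 in tumor COP-like nuclei. In immune-like nuclei they were 220 [207 to 234], 248 [232 to 264] and 331, and the first 2 intervals overlapped. In neuron-like nuclei promoter counts were 51.9 [48.5 to 55.4] with 0 and 69.1 [58.1 to 81.7] with 1 to 2 UMIs, intervals that did not overlap. So neuron-like nuclei with 1 to 2 IRG UMIs had fewer promoter counts than nuclei without any in these 4 classes. The median depth of peak counts in host oligodendrocyte-like nuclei was 5173, 5504 and 6282 in the 3 groups, and the part of depth in the rise was not tested.

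**Figure D5:**
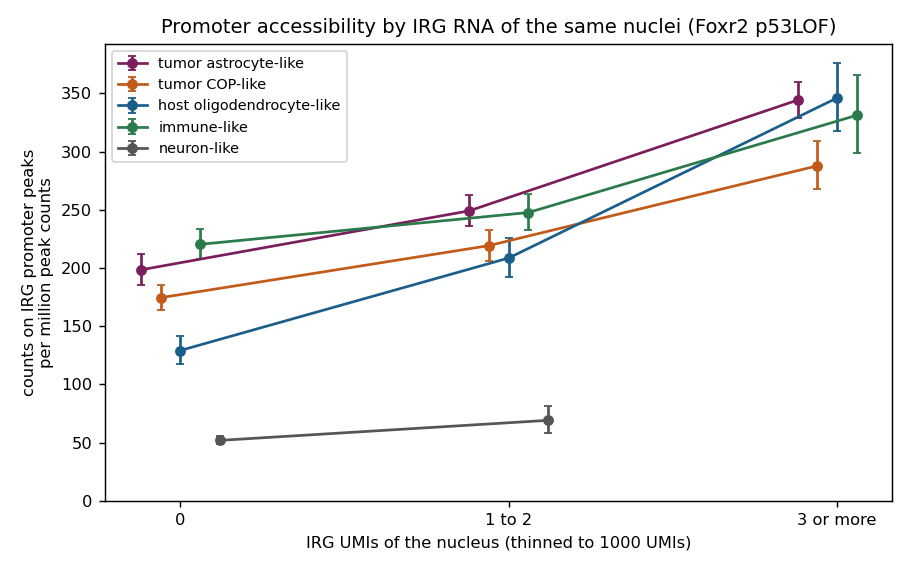
Counts on the 12 IRG promoter peaks per 1000000 peak counts, with 95% counting intervals, for nuclei of Foxr2 p53LOF grouped by their IRG UMIs after thinning to 1000 UMIs, 1 line per class. The host oligodendrocyte-like line climbs from 129 to 346 per 1000000, and the neuron-like line lies lowest, at 51.9 and 69.1; its group with 3 or more UMIs held 2 nuclei and is not drawn.

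Of 11 further IRG genes of the annotation, 8 were counted. F830016B08Rik was 241 CPM in tumor glia, 76.6 in host oligodendrocyte-like and 43.8 in immune-like nuclei of Foxr2 p53LOF and had 0 UMIs in the oligodendrocyte-like, astrocyte-like, immune-like and neuron-like nuclei of Foxr2 alone. As a percentage of tumor glia it overlapped GFP in host oligodendrocyte-like nuclei (31.8%). It lay below GFP in immune-like nuclei (18.2%), where it was not told apart from background. By contrast, 9930111J21Rik2 was 202 CPM in immune-like nuclei of Foxr2 p53LOF and 213 in those of Foxr2 alone, and Gm12185 was 97.3 and 72.1. In oligodendrocyte-like nuclei both were at 0 UMIs in Foxr2 alone and at 10.5 and 17.1 CPM in Foxr2 p53LOF, where 9930111J21Rik2 lay below the GFP percentage (14.4%) and Gm12185 above it (46.8%). So 9930111J21Rik2 and Gm12185, like Irgm2, had RNA in the immune-like nuclei of both libraries.

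The regulators of the interferon response were a list of 9. In Foxr2 p53LOF over Foxr2 alone, those at least 2-fold higher among those with at least 10 CPM were 7 of 7 in oligodendrocyte-like, 6 of 9 in immune-like, 5 of 5 in OPC-like and 4 of 4 in neuron-like nuclei, beside 13.3%, 15.4%, 11.1% and 13.4% of all genes, and none was at least 2-fold lower in any of these classes. Of all genes, 20.6%, 23.0%, 22.0% and 19.0% were at least 2-fold lower in the same classes. As a percentage of tumor glia, Stat2 and Irf9 lay above GFP in oligodendrocyte-like, immune-like and neuron-like nuclei. Nlrc5 lay above GFP in the first and second (48.1% and 65.7%). In neuron-like nuclei Nlrc5 lay below GFP (4.26%) and was not told apart from background. In OPC-like nuclei Stat2 (58.5%) lay above GFP, and Irf1, Nlrc5 and Usp18 overlapped it. Irf1 was 67.3 against 1.77 in oligodendrocyte-like and 141 against 25.2 in immune-like nuclei, where it overlapped and lay above GFP, in that order. Irf8, a factor of the myeloid lineage, was 353 and 200 CPM in immune-like nuclei. The median log2 ratio of CPM plus 1 over this list was 4.21 in oligodendrocyte-like and 3.51 in immune-like nuclei, against -0.05 and -0.16 over all genes.

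The receptors and kinases were a list of 7. Between the libraries, 1 of 6 (Tyk2) was at least 2-fold higher in oligodendrocyte-like nuclei and 0 of 6 in neuron-like nuclei, beside 13.3% and 13.4% of all genes. In immune-like nuclei 1 of 7 (Jak2) was higher, beside 15.4%, and 1 (Ifngr1, a chain of the interferon gamma receptor, at 169 against 508 CPM) was lower, beside 23.0%. In OPC-like nuclei 1 of 7 (Jak2) was higher, beside 11.1%, and 1 (Jak1) lower, beside 22.0%. These shares are near those of all genes. Ifngr1 was 18.0 CPM in tumor glia and 16.6 in host oligodendrocyte-like nuclei, and 6 of 7 genes of the list were at least 2-fold lower in tumor glia than in immune-like nuclei, beside 17.4% of all genes. Of 7 interferon ligands and inducers, Il12b, a subunit of interleukin 12, was the one with at least 10 CPM in these comparisons, at 74 UMIs (14.4 CPM) in immune-like nuclei of Foxr2 p53LOF against 0 UMIs in those of Foxr2 alone, where the floor of 3 UMIs makes it at least 2.66-fold higher.

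The membrane partners were 13 genes: guanylate-binding proteins (Gbp) that work with IRG proteins, the autophagy conjugation genes through which IRG proteins are placed, and Ubqln1, a ubiquilin. In oligodendrocyte-like nuclei all 7 Gbp genes were at least 2-fold higher in Foxr2 p53LOF, beside 13.3% of all genes, such as Gbp2 at 253 CPM against 0 UMIs and Gbp4 at 147 CPM against 0 UMIs. As a percentage of tumor glia, Gbp3 (73.2%) and Gbp7 (62.3%) lay above GFP there, and Gbp2 and Gbp9 overlapped it. Gbp4, Gbp5 and Gbp6 lay below it and were not told apart from background. In immune-like nuclei 6 Gbp genes were at least 2-fold higher, beside 15.4% of all genes, with Gbp2 at 283 against 3.60 CPM. There Gbp5 and Gbp7 lay above GFP, Gbp3 and Gbp9 overlapped it, and Gbp2, Gbp4 and Gbp6 lay below it. Of the autophagy genes, Atg5 was 41.7 against 40.3 CPM in oligodendrocyte-like nuclei, and Gabarapl2 was at least 2-fold lower in all 4 classes, where 19.0% to 23.0% of all genes were, at 26.6 against 116 CPM in oligodendrocyte-like nuclei.

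Across 11 sums of a class in a library with at least 100 nuclei, the genes other than the members whose log2(CPM + 1) followed the IRG sum most closely among 14309 genes were Irf9 (Pearson r = 0.99), H2-Q4, Ifit3, Rnf213, Nlrc5 and Oasl2 (0.98 each), and Gbp7 and Sec31a (0.97 each). The same measure was 0.98 for Gm4951, 0.97 for Igtp, Ifi47, Tgtp2 and Irgm1 and 0.94 for Iigp1 and Irgm2, which are part of the sum. Between members it ran from 0.80 (Irgm2 and Tgtp1) to 0.99 (Gm4951 and Tgtp2). These sums come from 2 libraries and share their free RNA and depth, so the coefficients describe these libraries only.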

How the data were processed

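The authors made the deposited counts with Cell Ranger ARC 2.0.0 from reads aligned to mm10 plus vector sequences, with cells and peaks called in each library on its own: whole UMIs per gene and transposition counts per peak, with no normalization. Libraries held 10379 (Foxr2 p53LOF) and 10096 (Foxr2 alone) barcodes, 96929539 and 59719847 UMIs, and 102529894 and 118436178 peak counts.

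Nuclei were kept with at least 400 genes, at least 400 fragments in peaks (peak counts divided by 2), at most 5% mitochondrial UMIs and below upper limits per library from the methods of the study. Scrublet in scanpy 1.11.5 (expected rate 8%) marked 352 and 532 doublets, which were removed. Each nucleus was normalized to 10000 UMIs on a log scale, and Leiden clustering (leidenalg 0.10.2) used 2000 variable genes, 30 components, 20 neighbours, resolution 0.5 and seed 100. Members, interferon lists and vectors were kept out of the variable genes. Clusters were named with at least 3 markers 2-fold up. The thresholds for naming were set after the data were seen.

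Counts were summed per class and library. Intervals (scipy 1.17.1) are exact at 95%: Poisson for levels, conditional binomial for ratios and Clopper-Pearson for shares. They cover counting error only, and the floor is 3 counts. The median of ratios is a second scaling that sets the ratio of the median feature to 1. With 1 library per genotype no test was made. The named genes were the 8 members, up to 3 other IRG genes by UMIs, the listed interferon genes, and the genes most like the sum. Members and lists were chosen with earlier results of these data known. The scripts were tested on simulated data. The values of 1 listed gene are not reported here.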

Additional observations from a re-analysis of the deposited data

Results flagged for a closer look

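The regulatory members had opposite orders of oligodendrocyte-like and immune-like nuclei in the 2 libraries. In Foxr2 p53LOF the log2 ratio of oligodendrocyte-like over immune-like nuclei was 1.06 for Irgm1, 1.47 for Irgm2 and 2.07 for Igtp, and in Foxr2 alone it was -2.51, -4.08 and -2.83, with counting intervals on opposite sides of 0 on the CPM scale. The value of Igtp in Foxr2 alone rests on 4 UMIs in each class, and with the median of ratios its interval, -4.84 to 0.01, included 0. The classes are in different clusters in each library, and there is 1 library per genotype, so the difference between the libraries was not tested. Gm4951 was lower in oligodendrocyte-like nuclei in both libraries, at -0.67 and -6.15.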

How the results depend on the processing

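Of 72 alternatives to the 7 ratios of summed IRG RNA or promoter counts, 49 moved the log2 value by less than its counting interval, 23 moved it further and 0 turned its direction. Some of the first kind left the counts as they were and show nothing of stability: the stricter vector threshold, the narrower promoter window, leaving out nuclei with an immune marker for immune-like nuclei between libraries, and the higher resolution for neuron-like nuclei between libraries and immune-like over neuron-like nuclei. No paired analysis was possible because the 2 libraries with counts share 1 replicate number and no test was made. With counts per nucleus, the ratios between libraries were 4.77 (immune-like), 5.69 (neuron-like) and 8.26 (oligodendrocyte-like), those of RNA were 2.60 (tumor over host glia) and 1.52 (immune-like over neuron-like), and those of promoters 1.53 and 1.72. With the median of ratios the last 4 were 0.42, 2.94, 0.20 and 2.32. With doublets kept, neuron-like between libraries was 5.63, and immune-like over neuron-like was 2.62 for RNA and 1.93 for promoters. Without the member with the most UMIs, the ratios between libraries were 3.07, 4.49 and 6.57. Leaving out nuclei with an immune marker UMI gave 0.30 for RNA and 0.22 for promoters of tumor over host glia, and limits on undivided peak counts gave 0.60 and 0.24. A minimum of 1000 genes and peak counts gave 4.04 for immune-like nuclei between libraries, and clustering each library on its own gave 3.60 for immune-like over neuron-like nuclei. The cause of these shifts was not tested. Without the minimum of 10 CPM, the genes at least 2-fold higher were 4326 in place of 1419 (neuron-like between libraries), 2673 in place of 1290 (oligodendrocyte-like), 5392 in place of 2777 (tumor over host glia), 4912 in place of 2541 (tumor glia over immune-like) and 6605 in place of 3645 (immune-like over neuron-like). The floor of 3 UMIs was 5.40 CPM in immune-like nuclei of Foxr2 alone and 0.584 in those of Foxr2 p53LOF, and 0.760 and 0.731 in oligodendrocyte-like nuclei, and lower levels were not detectable.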
